A study of Mus musculus with 4 samples.

Results

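The genes described here are 10 enzymes of glutathione metabolism and antioxidant defence, taken by symbol from the feature list of a single-cell RNA sequencing study of the aged mouse kidney. All 10 symbols (Gclc, Gclm, Gss, Gsr, Gpx1, Gpx3, Gpx4, Ggt1, Hmox1 and Nqo1) matched a row, 10 of 31054 features in all. Kidneys came from male C57BL/6 mice, 19 months old when dosing began, which received either BPTES, a small-molecule inhibitor of the glutaminase GLS1, or its solvent DMSO during 1 month. Each group has 2 libraries. Cells were freed with liberase and sorted by the leukocyte antigen CD45. For each library 20000 CD45-negative cells were mixed with 9000 CD45-positive cells of the same tissue and run on the 10x Genomics GEM-X 3' v4 chemistry. The labels do not say whether the 2 libraries of a group came from separate animals, so p-values measure the spread between libraries, which may be technical. The mixing ratio was set at the sort, so the share of leukocytes is not that of the tissue, and all animals were aged: no young kidney and no untreated mouse is among the groups.

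Glutathione is a tripeptide of glutamate, cysteine and glycine that cells use to reduce peroxides and to conjugate toxic molecules. Its glutamate can come from glutamine through glutaminase, the enzyme that BPTES inhibits. Glutamate-cysteine ligase, made of the catalytic subunit Gclc and the modifier subunit Gclm, carries out the rate-limiting step of synthesis, and glutathione synthetase (Gss) adds the glycine. Glutathione reductase (Gsr) regenerates the reduced form with NADPH, and the selenium enzymes Gpx1 (cytosol and mitochondria), Gpx3 (secreted, made mainly by the kidney tubule) and Gpx4 (lipid hydroperoxides) consume it. Ggt1, a brush-border enzyme of the proximal tubule, breaks down extracellular glutathione. Hmox1 degrades heme and Nqo1 reduces quinones, and both are textbook targets of the transcription factor NRF2, as are Gclc and Gclm.

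In the GENCODE vM21 annotation of GRCm38 (mm10), the build named in the submitters' processing notes, all 10 are protein-coding genes. The subunits of the ligase lie apart, Gclc at chr9:77754535-77794485 (plus strand) and Gclm at chr3:122245557-122270732 (plus). Gss lies at chr2:155563181-155592810 (minus) and Gsr at chr8:33652523-33698163 (plus). The peroxidases lie at chr9:108338903-108340343 (Gpx1, plus), chr11:54902453-54910377 (Gpx3, plus) and chr10:80047166-80056439 (Gpx4, plus). Ggt1 lies at chr10:75561604-75586200 (plus), Hmox1 at chr8:75093621-75100589 (plus) and Nqo1 at chr8:107388225-107403206 (minus). The RefSeq promoter table (GRCm38.p6, 250 bases before to 50 after a start) held 13 windows for 7 of the 10 genes, with none for Gclc, Gsr and Hmox1. Windows were searched on both strands for the core of the antioxidant response element, TGACNNNGC, and for the AP-1 motif TGACTCA, which the core contains where its N positions read TCA. The core was found in 4 windows of 2 genes, Gclm and Ggt1, against 4071 of 32851 windows in the table (12.4%). TGACTCA was in 0 of the 13 windows and in 5.2% of all windows. In Gclm the match TGACGGTGC lies on the opposite strand, 125 bases before the start, at chr3:122245423-122245431. Ggt1 has a match in 3 of its 4 windows: TGACACAGC at chr10:75564173-75564181 on the gene strand after the start, TGACCCAGC at chr10:75568626-75568634 on the opposite strand 27 bases before the start, and TGACGCTGC at chr10:75571477-75571485 on the gene strand 74 bases before it. The bases upstream of the RefSeq start are printed for 3 genes on which the results below turn. Gclm and Nqo1 had the steepest gradients along the proximal tubule, and Gpx3 the gradient in the other direction. Each is written 5′ to 3′ on the gene's strand from chr3:122245307-122245556 (plus), chr8:107403206-107403455 (minus) and chr11:54902604-54902771 (plus), in lower case, with the motif match in capitals.
Gclm: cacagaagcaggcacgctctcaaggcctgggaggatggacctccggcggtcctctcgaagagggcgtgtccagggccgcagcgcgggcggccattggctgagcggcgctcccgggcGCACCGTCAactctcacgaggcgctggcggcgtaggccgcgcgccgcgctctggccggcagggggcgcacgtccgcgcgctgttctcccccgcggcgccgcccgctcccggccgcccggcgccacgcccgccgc
Nqo1: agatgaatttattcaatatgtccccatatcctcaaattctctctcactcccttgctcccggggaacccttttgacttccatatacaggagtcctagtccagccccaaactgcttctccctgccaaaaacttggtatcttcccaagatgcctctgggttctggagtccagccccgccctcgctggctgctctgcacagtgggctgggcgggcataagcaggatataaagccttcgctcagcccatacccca
Gpx3: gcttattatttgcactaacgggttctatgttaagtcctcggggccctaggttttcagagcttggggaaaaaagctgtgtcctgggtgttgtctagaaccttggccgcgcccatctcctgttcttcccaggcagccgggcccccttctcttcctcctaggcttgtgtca
The capitals in the Gclm run are the gene-strand reading of its opposite-strand match, and the Nqo1 and Gpx3 runs hold no match to either motif. The Gpx3 run is the first 168 of the 250 bases before the table's start, since the bases that follow are exonic in an annotated transcript and are not printed. It lies within the annotated Gpx3 gene, which begins at chr11:54902453, so it is upstream of the RefSeq start only. The last base of the Nqo1 run is the first base of the annotated Nqo1 gene. A match is a description of letters, and no binding was measured.

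After filters on depth, mitochondrial share and doublets, 46738 of 76278 barcodes were kept (10849 to 12076 per library), with 12825 to 14817 median UMIs per cell and 249881074 to 297947661 UMIs deposited per library. Of the barcodes of any pair of libraries, 0.503 to 0.618% were shared. Clustering, from which these 10 genes and the wider antioxidant lists were left out, gave 52 clusters, of which 48 were named from marker lists and pooled into 20 classes. Names mean "like" the type. Ptprc, the gene for CD45, was at 3.94 to 46.8 CPM in the 8 CD45-negative classes and at 144 to 2534 CPM in the 9 CD45-positive ones. CPM are UMIs per 1e+06 UMIs of the summed class. Levels are given for the 18 classes with at least 20 cells in every library, and treatment was tested in the 8 largest with at least 50.

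The synthesis genes were spread unevenly over the cell types. Levels in this and the next 3 paragraphs are CPM without further scaling, mean ± SD over the 4 libraries (n = 4), and are compared only within a gene, in classes that share libraries. Gclc was highest in collecting duct intercalated cells, the acid-base cells of the collecting duct, at 497 ± 29.2 CPM. The distal convoluted tubule followed at 351 ± 82.9 CPM and principal cells at 312 ± 55.0 CPM, with libraries that overlapped between these last classes but not with the intercalated cells. The only principal cell cluster, cluster 29, carried connecting tubule markers at a median of 104.5% of the connecting tubule level. Their part in the principal cell levels was not tested. The proximal tubule stood at 112 ± 17.8 CPM, within the range of the thick ascending limb (106 ± 38.3 CPM) and the innate lymphoid cells (134 ± 29.5 CPM). T cells (94.4 ± 19.3 CPM) were the highest of the large leukocyte classes, macrophages were at 33.5 ± 3.03 CPM and plasma cells lowest at 14.6 ± 5.66 CPM.

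Gclm had another order. It was highest in the proximal tubule (315 ± 61.4 CPM) and in injured tubule cells (307 ± 60.2 CPM), whose libraries overlapped, and all other classes lay below both, from 92.6 ± 16.2 CPM in the connecting tubule down to 14.8 ± 4.34 CPM in plasma cells. Intercalated cells, first for Gclc, held 75.9 ± 13.9 CPM of Gclm. Gss followed the pattern of Gclm, with 157 ± 16.4 CPM in the proximal tubule and 147 ± 30.5 CPM in injured tubule, then a gap to 33.5 ± 7.75 CPM in the thick ascending limb. Neighbours in the order of Gss overlapped in 16 of 17 cases, as they did for Gclm, so the order among the lower classes is not resolved. Injured tubule cells were few (30 and 30 in the BPTES libraries, 184 and 223 in the DMSO libraries), and 2 clusters of this class carried proximal tubule markers at 56.6% and 36.6% of the proximal tubule's level.

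The recycling enzyme and the peroxidases divided leukocytes from tubule in different ways. Gsr was highest in neutrophils (1339 ± 132 CPM), then monocytes (568 ± 89.4 CPM), then proximal tubule (234 ± 31.9 CPM), with no overlap between these neighbours. It was lowest in B cells (11.1 ± 2.77 CPM). Neutrophil cluster 45 carried monocyte markers at a median of 104.8% of the monocyte level. It held 1651704 of 3698073 and 1078450 of 3152252 neutrophil UMIs in the BPTES libraries, and 575362 of 2787620 and 883292 of 3924265 in the DMSO libraries. Its part in the neutrophil levels was not tested. Gpx1 was highest in injured tubule (4574 ± 531 CPM) and proximal tubule (3914 ± 560 CPM), which overlapped, and monocytes came next at 2031 ± 75.5 CPM. Dendritic cells (1237 ± 110 CPM), neutrophils (1100 ± 54.3 CPM) and macrophages (798 ± 97.0 CPM) held more Gpx1 than T cells (255 ± 34.2 CPM) and natural killer cells (175 ± 36.6 CPM), without overlap. Gpx3 was at 19368 ± 2466 CPM in the proximal tubule and at 13954 ± 2885 CPM in injured tubule, without overlap, then at 2028 ± 623 CPM in the connecting tubule, and at 299 to 747 CPM in leukocytes and endothelium. Gpx4 varied least in the ratio of its highest to its lowest class, from 1146 ± 105 CPM in injured tubule and 1072 ± 128 CPM in proximal tubule to 130 ± 14.6 CPM in B cells.

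Ggt1, Hmox1 and Nqo1 were each concentrated in few classes. Ggt1 stood at 299 ± 40.4 CPM in the proximal tubule, 198 ± 17.9 CPM in the thick ascending limb and 175 ± 17.0 CPM in injured tubule, and at 3.09 to 9.69 CPM in leukocytes, endothelium and collecting duct. Hmox1 was led by monocytes (151 ± 64.5 CPM) and neutrophils (94.8 ± 45.9 CPM), ahead of macrophages (46.3 ± 5.26 CPM) and proximal tubule (22.3 ± 3.68 CPM). The neutrophil value includes cluster 45, with monocyte markers at 104.8% of the monocyte level. Nqo1 was highest in the connecting tubule (55.3 ± 15.7 CPM), the distal convoluted tubule (37.5 ± 16.6 CPM) and the proximal tubule (31.4 ± 4.92 CPM), and at 0.404 to 3.75 CPM in the leukocyte classes. For Nqo1, neighbours in the order overlapped in 17 of 17 cases. The connecting tubule and thick ascending limb consisted largely of shallow clusters, with a median depth of 0.11 and 0.17 of their own libraries' median, so their levels rest on few UMIs per cell.

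**Figure D1:**
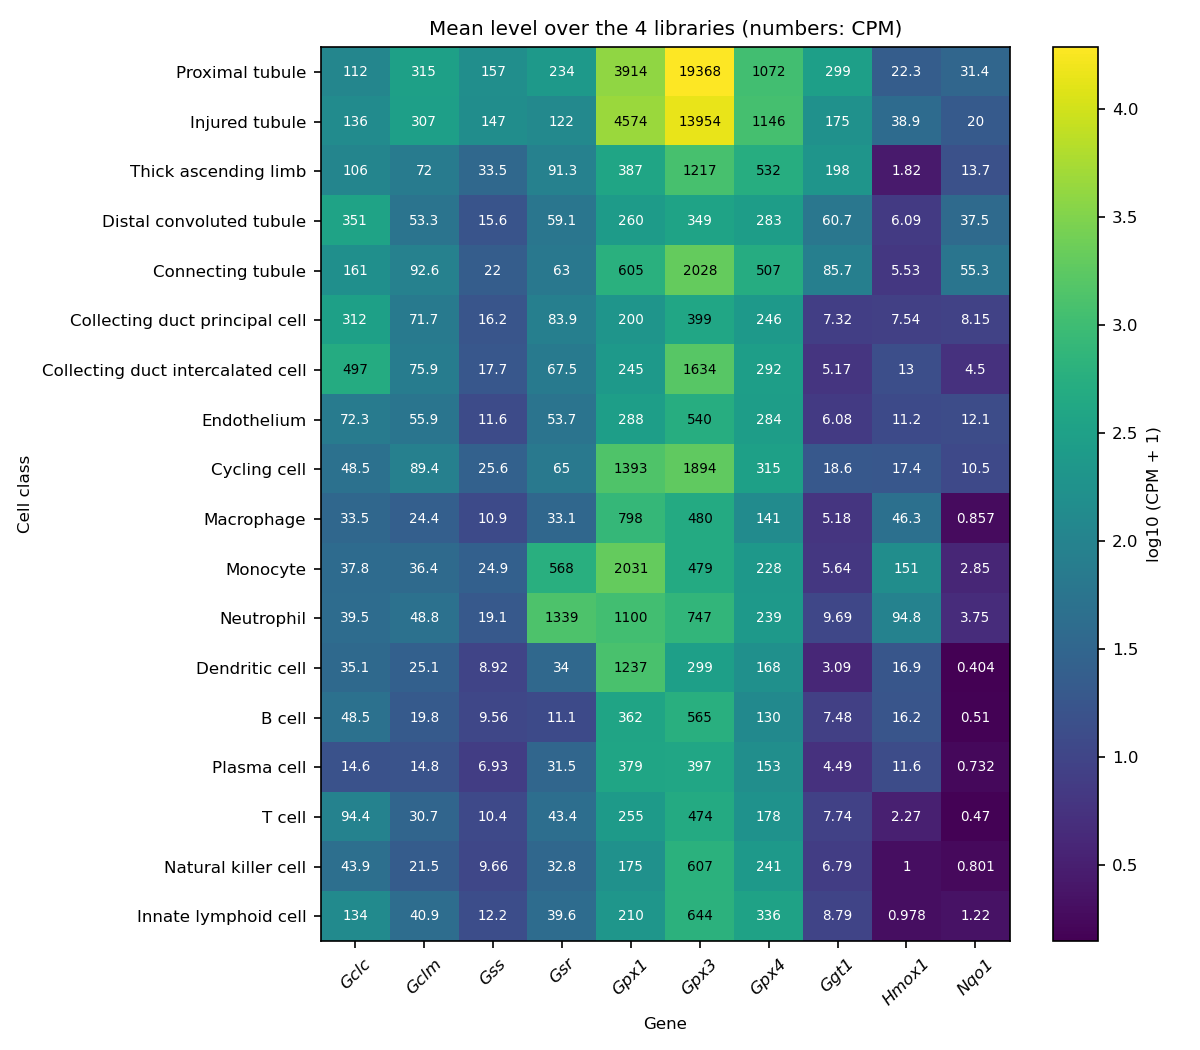
Mean level of the 10 genes (columns) in the 18 cell classes (rows) over the 4 libraries, printed in CPM and coloured by log10(CPM + 1). Gclm, Gss, Gpx3 and Ggt1 are highest in the proximal tubule, Gclc in intercalated cells, Gsr in neutrophils and Hmox1 in monocytes.

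The genes whose level followed each enzyme most closely were sought among 13243 genes across 14 classes, as the Pearson correlation of log2(mean DMSO CPM + 1), a description over classes that share libraries. Gpx3 was matched most closely, by Clec2h (r = 0.989) and Folr1 (r = 0.988), Gss by Cideb (0.963), and Ggt1 by Nr1h4 (r = 0.950) and Abat (r = 0.947). Abat was also the closest to Gpx4 (0.947), before Ttc36 (0.939). Gclm was closest to Mettl7a1 (0.917) and Acot1 (0.914), and Gclc to Pex26 (0.944) and Cxadr (0.928). Gsr was closest to Tmem38b (0.927) and Msrb1 (0.913), Gpx1 to Sap30 (0.949) and Ftl1 (0.924), Hmox1 to Vps26a (0.924) and Aldh3b1 (0.872), and Nqo1 to Mlf2 (0.899) and Tpmt (0.893).

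Within the proximal tubule the genes separated by segment. Clusters were split by markers into the early S1-S2 segment, which holds the glucose transporter Slc5a2 at 14.3 times its S3 level, and the late S3 segment, which holds the amino acid transporter Slc7a13 at 121 times its S1-S2 level. Clusters were formed from the same cells, so the differences between segments are descriptions. Nqo1 was at 66.4 ± 4.38 CPM in S3 and 13.0 ± 1.83 CPM in S1-S2, a ratio of 5.09 (mean ± SD, n = 4 for these values). Gclm was at 621 ± 50.7 CPM in S3 and 129 ± 11.6 CPM in S1-S2 (ratio 4.81), and Ggt1 at 623 ± 80.0 and 164 ± 12.9 CPM (ratio 3.81). The other synthesis genes had smaller gradients, 2.29 for Gclc and 2.36 for Gss, beside 2.91 for Gpx1 and 2.31 for Gpx4. Hmox1 (1.64) and Gsr (1.59) differed least, and the 4 libraries of both segments did not overlap for any of these 9 genes. Gpx3 ran the other way, with 24969 ± 947 CPM in S1-S2 and 8472 ± 759 CPM in S3, which is 2.95-fold higher in S1-S2.

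**Figure D2:**
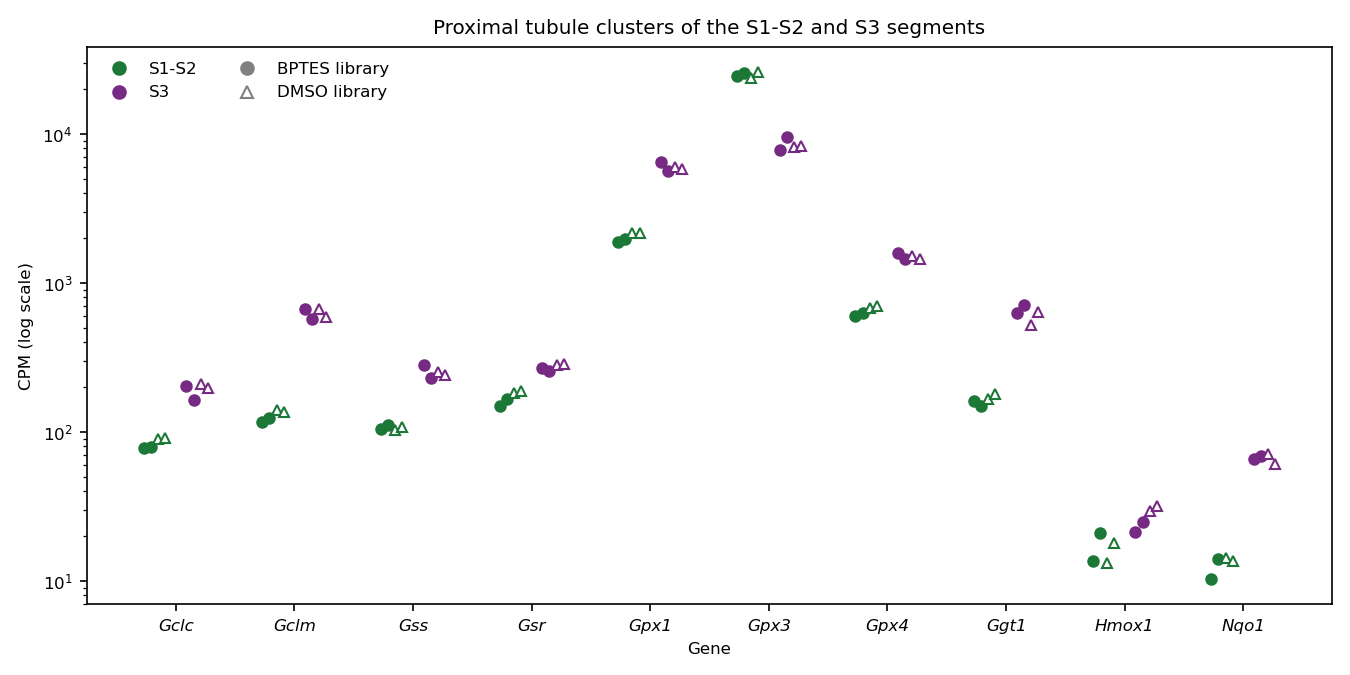
Level of each gene in S1-S2 and S3 proximal tubule clusters, in CPM on a log axis, with a point for each of the 4 libraries. Gpx3 is higher in S1-S2 and the other 9 genes are higher in S3, with no overlap between the segments.

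Under BPTES, 9 of the 10 genes had lower values in the proximal tubule and Gpx3 a higher one, but no gene passed the test. Here and in all treatment comparisons below, CPM carry the TMM scaling of the fit, values are listed for BPTES libraries 1 and 2 and then DMSO libraries 1 and 2, and a log2 fold change is BPTES over DMSO with its SE. By edgeR's quasi-likelihood test with Benjamini-Hochberg adjustment over all genes, 0 of the 10 were called at an adjusted p below 0.05. Of all genes in this class, 101 of 15973 were called (0.632%). An unadjusted p below 0.05 was found for 4 of the 10 and for 19.6% of all genes, and DESeq2 called 0 of the 10. The share of all genes whose groups do not overlap was not counted, here or in the other classes. The median log2 fold change of the 10 was −0.22, and that of all genes tested −0.01.

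Of the ligase subunits, Gclm was at 305 and 248 CPM under BPTES and 349 and 349 CPM under DMSO, and Gclc at 109 and 94.0 CPM against 119 and 124 CPM. For both genes the BPTES libraries lay below both DMSO libraries, and BPTES library 2 was the lowest. The log2 fold change was −0.34 (SE 0.12, adjusted p = 0.185) for Gclm and −0.26 (SE 0.10, adjusted p = 0.216) for Gclc. Gclm stood at −0.49 without BPTES library 1 and at −0.19 without BPTES library 2. Gss, at 159.9 and 143 against 157 and 168 CPM, overlapped between groups (−0.10, SE 0.10, adjusted p = 0.572). Gsr was at 209 and 218 against 246 and 262 CPM (−0.25, SE 0.09, adjusted p = 0.197), with no overlap. Nqo1, at 27.7 and 28.4 against 34.8 and 34.1 CPM, had the smallest p of the 10 and no overlap (−0.30, SE 0.08, adjusted p = 0.131).

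Among the peroxidases Gpx3 was at 19080.2 and 24536 CPM under BPTES and 16409.6 and 17912 CPM under DMSO. BPTES library 2 stood above the other 3, and the groups did not overlap (+0.35, SE 0.17, adjusted p = 0.287, with a range of +0.16 to +0.52 over the omission of each library). Gpx1 was at 3892 and 3345 against 4097 and 4259 CPM (−0.21, SE 0.13, adjusted p = 0.380), and Gpx4 at 1048 and 962 against 1114 and 1149 CPM (−0.17, SE 0.10, adjusted p = 0.380). For both, the BPTES libraries were below the DMSO libraries, library 2 the lower. Ggt1 (288 and 288 against 266 and 356 CPM) and Hmox1 (18.5 and 22.6 against 20.8 and 27.2 CPM) overlapped between groups, with log2 fold changes of −0.11 (adjusted p = 0.665) and −0.23 (adjusted p = 0.425). Over the omissions Gclc ranged from −0.37 to −0.15, Gss from −0.18 to −0.02, Gpx1 from −0.32 to −0.10, Ggt1 from −0.30 to +0.11 and Hmox1 from −0.40 to −0.03.

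**Figure D3:**
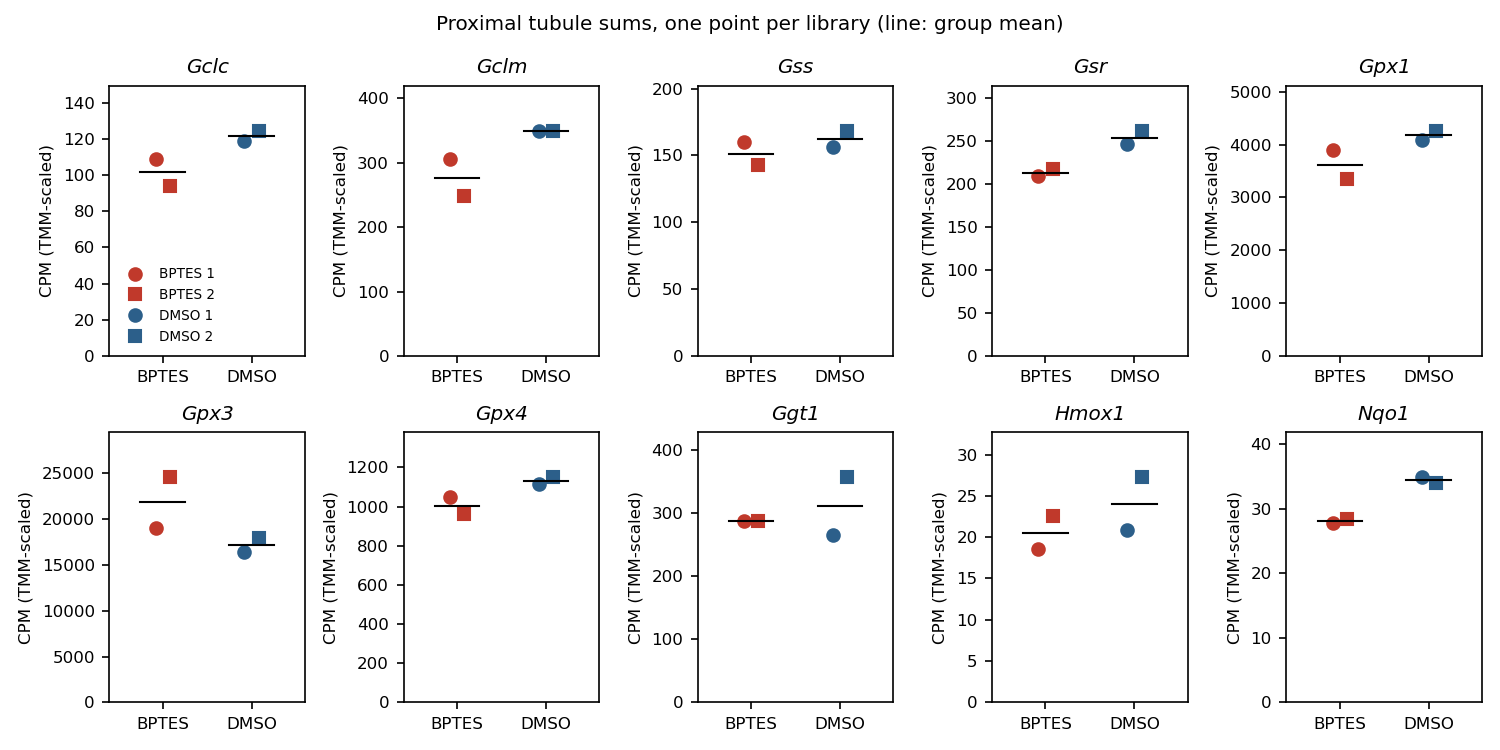
Level of the 10 genes in the summed proximal tubule cells of each library, in TMM-scaled CPM. Points are the 2 BPTES and 2 DMSO libraries and lines the group means. Gclc, Gclm, Gsr, Gpx1, Gpx4 and Nqo1 lie lower in both BPTES libraries and Gpx3 higher, and none passed the test. The share of all genes that separate in this way was not counted.

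The make-up of the proximal tubule class also differed between groups. S1-S2 clusters made up 40.9% and 43.3% of proximal tubule cells under BPTES and 34.3% and 34.1% under DMSO. S3 clusters, where 9 of the genes were higher than in S1-S2, made up 20.5% and 14.9% against 26.2% and 29.3%. Cells of no assigned segment made up 38.6% and 41.8% against 39.5% and 36.5%. BPTES library 2, lowest for the ligase subunits and highest for Gpx3, had the smallest S3 share. The cells of no segment carried 18.0% and 24.04% mitochondrial UMIs under BPTES and 13.0% and 16.9% under DMSO. Among them cluster 0, with 30.1 to 31.9% mitochondrial UMIs in each library, made up 24.3% and 30.8% of the class under BPTES and 17.8% and 18.3% under DMSO. The rest were cluster 1, with 8.01 to 13.6% mitochondrial UMIs. It made up 14.3% and 10.9% of the class under BPTES and 21.7% and 18.2% under DMSO. The part of this shift between the 2 clusters in the values was not tested. In the whole class, fits at a mitochondrial limit of 25% and without mitochondrial genes changed no call of the 10 genes. Over all classes, 3 of 91 values changed sign at that limit, none of them called. The part of RNA quality in the values was not tested further. Fitted within segments, Gclc, Gclm, Gsr, Gpx1, Gpx3, Gpx4 and Nqo1 had log2 fold changes nearer 0 than in the whole class in both segments. Ggt1, Hmox1 and Gss did not in S3. Cells of no segment were not fitted alone. In CPM without TMM scaling, Gsr was there at 262 and 239 against 346 and 350, and Gclm at 273 and 224 against 345 and 321. Gpx1 was at 4920 and 3758 against 5382 and 5283, and Gpx4 at 1307 and 1065 against 1470 and 1412. Gclc, Gss, Hmox1 and Nqo1 were also lower in both BPTES libraries, Gpx3 was higher in both and Ggt1 overlapped. Mean Gsr was 299 CPM in these cells and 272 CPM in S3. Within S1-S2 Gclm was at 117 and 127 against 135 and 137 CPM (−0.16, adjusted p = 0.318), Nqo1 at 10.4 and 14.4 against 13.7 and 13.6 CPM (−0.14) and Gpx3 at 24762 and 26409 against 22886 and 25952 CPM (+0.07). Within S3 Gclm was at 665 and 617 against 634 and 568 CPM (+0.09), Nqo1 at 66.0 and 74.2 against 67.5 and 58.7 CPM (+0.15) and Gsr at +0.02, while Gpx3 was at +0.20 and Gss at +0.18. The largest values within S3 were Ggt1 at 626 and 774 against 493 and 617 CPM (+0.33, SE 0.14, adjusted p = 0.294) and Hmox1 at 21.4 and 26.9 against 27.9 and 30.9 CPM (−0.30, SE 0.13, adjusted p = 0.284). In S1-S2 edgeR called 0 of the 10 genes, against 1.18% of all genes, and 0 had an unadjusted p below 0.05, against 2890 of 14867. In S3 it also called 0, against 2.00%, and 2 had an unadjusted p below 0.05, against 2170 of 13675. Whether the segment shares changed with treatment was not tested. Markers of other cells moved in these sums too: macrophage markers were lower in both BPTES libraries for 7 of 7 genes (summed 19.1 and 14.4 against 29.3 and 33.5 CPM), cycling markers for 5 of 6 and injured tubule markers for 6 of 7, although the injured tubule sum was 255 and 281 against 235 and 251 CPM. Their part in the values was not tested.

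Outside the tubule, Gpx3 was higher in both BPTES libraries of 5 further tested classes and missed the threshold in each. In macrophages it was at 505 and 758 CPM under BPTES and 349 and 311 CPM under DMSO (+0.94, SE 0.22, adjusted p = 0.103). In B cells it was at 919 and 675 against 395 and 285 CPM (+1.23, SE 0.21, adjusted p = 0.0724), in T cells at 599 and 528 against 375 and 399 CPM (+0.54, SE 0.09, adjusted p = 0.0913), and in monocytes at 529 and 603 against 386 and 406 CPM (+0.51, SE 0.11, adjusted p = 0.0541). Endothelium (686 and 542 against 431 and 505 CPM, +0.39, adjusted p = 0.325) had the same order, and dendritic cells did not, with overlapping groups at 229 and 350.3 against 286 and 334 CPM (−0.10). DESeq2 called Gpx3 in macrophages, T cells, monocytes and B cells, among 647, 117, 716 and 409 genes in all. The B cell value was +1.49 without DMSO library 1 and +1.01 without DMSO library 2, and the T cell value was +0.46 without BPTES library 1. Over the 4 omissions the value ranged from +1.01 to +1.49 in B cells, +0.46 to +0.63 in T cells, +0.41 to +0.63 in monocytes, +0.62 to +1.204 in macrophages and +0.21 to +0.55 in endothelium.

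Other proximal tubule transcripts were also present in these classes. In leukocytes and endothelium Gpx3 stood at 1.37 to 4.28% of its proximal tubule level, beside a median of 1.01 to 3.63% for the 7 proximal tubule markers (Slc34a1, Lrp2, Cubn, Slc27a2, Miox, Slc13a3 and Acsm2). In macrophages Gpx3 was at 2.99% under BPTES and 1.86% under DMSO, and the marker median at 1.97% and 1.15%. In B cells the figures were 3.73% and 1.94% for Gpx3 and 2.40% and 1.32% for the markers, and in T cells 2.65% and 2.21% beside 1.77% and 1.48%. The summed markers, none of them at 0, were higher in both BPTES libraries in 4 of the 5 classes. They were at 242 and 303 CPM in BPTES macrophages against 178 and 139 CPM in DMSO macrophages (6 of 7 markers higher in both BPTES libraries), at 429 and 239 against 216 and 111 CPM in B cells (3 of 7), at 280 and 215 against 194 and 182 CPM in T cells (2 of 7) and at 316 and 219 against 178 and 180 CPM in monocytes (4 of 7). In endothelium they overlapped, at 330 and 217 against 218 and 238 CPM (1 of 7), and BPTES library 2, the lowest of these sums, had Gpx3 above both DMSO libraries. In dendritic cells, where Gpx3 overlapped, they were at 145 and 143 against 149 and 146 CPM. Per CPM of the summed markers, Gpx3 in macrophages was at 2.14 and 2.46 under BPTES and 1.95 and 2.24 under DMSO, in T cells at 2.18 and 2.36 against 1.95 and 2.20, and in monocytes at 1.68 and 2.68 against 2.23 and 2.22. In the proximal tubule itself this ratio was 1.39 and 1.69 against 1.36 and 1.38, below the value of the same library in each of these 3 classes. The same held in B cells (2.13 and 2.76 against 1.88 and 2.52), endothelium (2.10 and 2.45 against 2.00 and 2.10) and dendritic cells (1.61 and 2.42 against 1.89 and 2.28). Of all classes with levels, only principal cells (1.11 in BPTES library 2, 1.19 in DMSO library 1) and plasma cells (1.03 in DMSO library 1) went below it. The part of tubule RNA was not tested. A few cells held much of the Gpx3 in B cells: the 5 cells with most Gpx3 held 59.2% and 61.5% of the UMIs in BPTES B cells and 39.7% and 42.3% in DMSO B cells, although 87.5 to 89.7% of B cells had at least 1 UMI.

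In endothelium, T cells, macrophages, monocytes and dendritic cells, 2 or more clusters held 50 or more cells in all 4 libraries. These clusters were also fitted alone, an analysis added after the first results. In 12 fits with 112 tests of these genes, 2 were called and 21 had an unadjusted p below 0.05. Of all genes, those with an unadjusted p below 0.05 ranged from 630 of 10712 (endothelial cluster 14) to 3104 of 12565 (macrophage cluster 4). The 2 macrophage clusters gave like values for Gpx3, and one of them, cluster 19, also carried T cell markers at 38.0% of the T cell level. In cluster 19 Gpx3 rose from 255 and 228 CPM under DMSO to 414 and 554 CPM under BPTES (+1.00, SE 0.14, adjusted p = 0.0261), the only one of 9 genes tested there that was called, against 1.74% of all genes. The summed proximal tubule markers in that cluster were at 224 and 175 CPM under BPTES and 131 and 102 CPM under DMSO, with 4 of 7 higher in both BPTES libraries. In cluster 4 Gpx3 was at 606 and 907 against 375 and 380 CPM (+1.00, SE 0.20, adjusted p = 0.0588; 0 of 10 genes called, 3 unadjusted, against 3.02% of all genes), with marker sums of 255 and 397 against 197 and 164 CPM. The part of tubule RNA in these values was not tested. In monocytes, T cells and endothelium the clusters differed among themselves. Gpx3 was higher in both BPTES libraries in monocyte cluster 20 (+0.62), T cell clusters 6 (+0.85) and 10 (+0.64) and endothelial clusters 5 (+0.60) and 14 (+0.55). It overlapped in monocyte cluster 23 (638 and 992 against 630 and 1009 CPM, −0.002), T cell cluster 24 (647 and 231 against 421 and 960 CPM, −0.63) and endothelial cluster 22 (418 and 208 against 331 and 481 CPM, −0.35), and none of these 8 values was called.

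**Figure D4:**
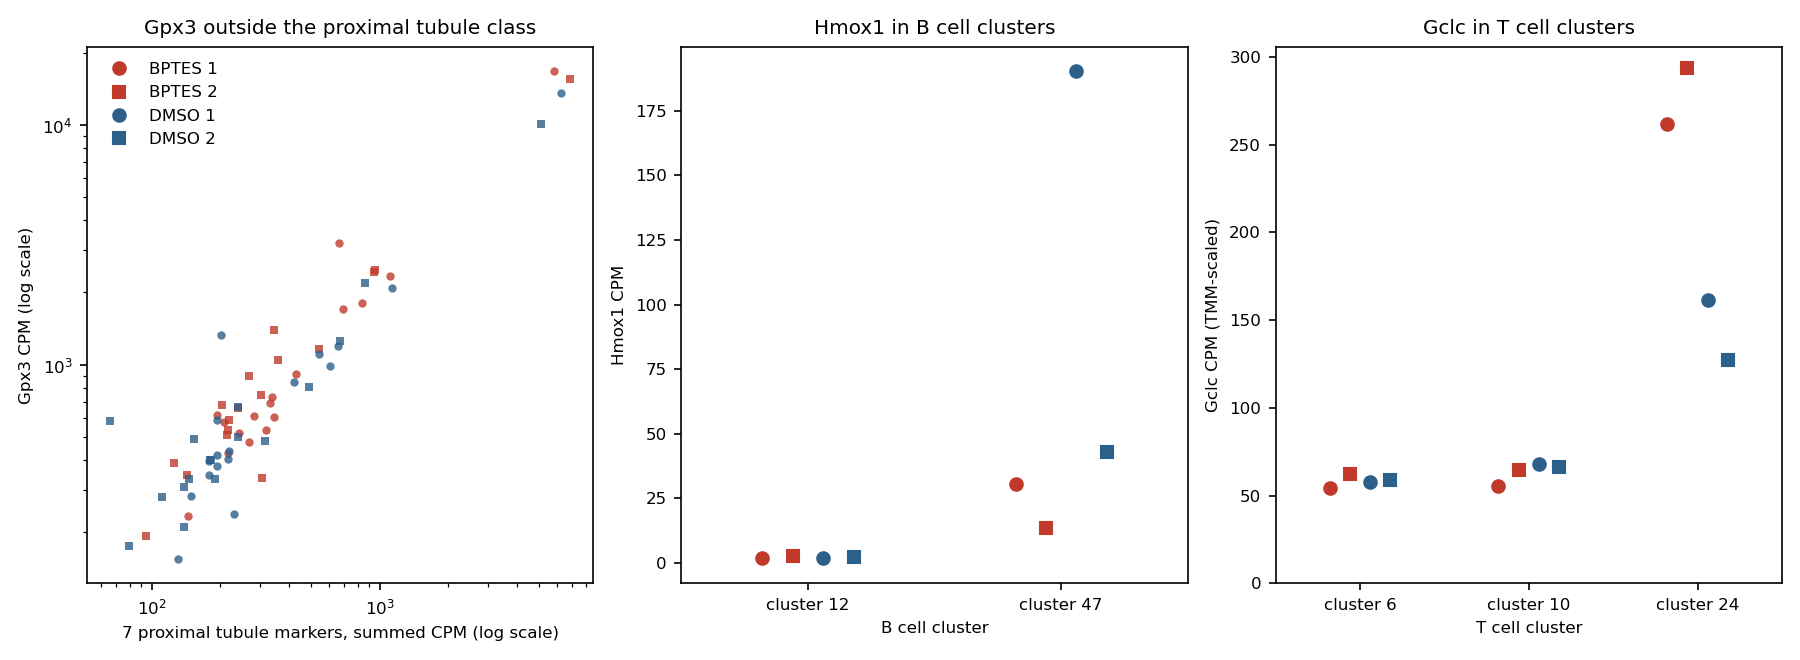
Left, Gpx3 against the summed 7 proximal tubule markers in each class and library outside the proximal tubule, in CPM on log axes. Middle and right, Hmox1 in the B cell clusters (CPM) and Gclc in the T cell clusters (TMM-scaled CPM) by library: Hmox1 lies between 1.87 and 2.50 CPM in cluster 12 and reaches 190.3 CPM in cluster 47, and Gclc is higher in both BPTES libraries in cluster 24.

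Hmox1 in B cells was the only value of the 10 genes that passed the test in a whole class. It fell from 36.8 and 20.7 CPM under DMSO to 3.64 and 3.13 CPM under BPTES (−3.05, SE 0.38, adjusted p = 0.0290, edgeR), with 125 and 101 UMIs against 14 and 9. This was 1 of 9 genes tested in B cells, where 0.641% of all genes were called. In B cells 5 of the 9 had an unadjusted p below 0.05, beside 16.9% of all genes. It was also 1 of 76 gene and class pairs in all, of which 23 had an unadjusted p below 0.05. Over the tested classes, 0.0540 to 4.08% of all genes were called, and 7.43 to 24.6% had an unadjusted p below 0.05. Nearly all of the Hmox1 difference came from cluster 47, a small cluster of the B cell class that carried macrophage markers at 85.8% of the macrophage level. That cluster held 5 and 4 BPTES cells with 7 and 2 Hmox1 UMIs, and 20 and 56 DMSO cells with 120 and 95, and a single DMSO cell held 85 of them. In cluster 12, which holds the other B cells (352, 299, 289 and 216), the BPTES libraries had 7 and 7 UMIs and the DMSO libraries 5 and 6, or 1.92 and 2.50 against 1.87 and 2.20 CPM. With cluster 47 left out, 0 genes of the 10 and 2 genes in all were called in B cells. The summed macrophage markers of the whole class were at 708 and 419 CPM under BPTES and 1762 and 5087 CPM under DMSO, lower in both BPTES libraries for 7 of 7. The call was also lost without BPTES library 1 (−3.16, adjusted p = 0.269), without BPTES library 2 (−2.95, adjusted p = 0.301) and with doublets kept (−0.99, adjusted p = 0.177).

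The other genes in B cells did not pass. Gclm was at 29.9 and 19.4 against 15.03 and 15.4 CPM (+0.71, adjusted p = 0.222), Ggt1 at 13.3 and 7.64 against 5.89 and 3.28 CPM (+1.23, adjusted p = 0.214) and Gpx1 at 341 and 288 against 371 and 454 CPM (−0.39, adjusted p = 0.249). Neither group overlapped the other for these 3 genes, and BPTES library 1 was the highest for Gclm and Ggt1, as it was for the proximal tubule markers (429 CPM). Over the 4 omissions Gclm ranged from +0.37 to +0.98, Ggt1 from +0.78 to +1.69 and Gpx1 from −0.52 to −0.24. The genes not yet named in this class lay between −0.44 (Gsr) and +0.41 (Gss). In cluster 12 alone Gpx1 overlapped between groups, at 335 and 254 against 302 and 287 CPM, and in cluster 47 it was at 406 and 769 against 714 and 643 CPM.

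Gclc rose under BPTES in T cell cluster 24, whose leading genes were Il23r, Cd163l1, Trdc, Tcrg-C1 and Il17a, genes of the gamma delta T cell receptor and of the interleukin 17 programme. It was at 262 and 294 CPM in the BPTES libraries and at 161 and 127 CPM in the DMSO libraries (+0.92, SE 0.12, adjusted p = 0.00333), 1 of 8 genes tested there, against 1.77% of all genes. Of its 683 cells, 76.9% and 80.6% had a Gclc UMI under BPTES and 70.7% and 58.6% under DMSO, at median depths of 15484, 15271, 14742 and 13958 UMIs per cell. The UMIs numbered 717 and 614 in 186 and 144 BPTES cells against 510 and 208 in 225 and 128 DMSO cells, and the top cell held 2.93 to 7.82% of them. Leaving out each library in turn gave +0.78 to +1.12. Markers of other cells also moved in this cluster: the summed macrophage markers were at 22.7 and 19.97 against 50.2 and 52.0 CPM (5 of 7 lower in both BPTES libraries, none at 0), cycling markers at 24.9 and 14.7 against 49.3 and 81.0 CPM (4 of 6 lower), and plasma cell markers at 156 and 178 against 123 and 103 CPM (4 of 7 higher). Their part in the value was not tested.

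The other T cell clusters large enough to fit did not show it. In cluster 6, led by Ctla4, Cd5 and Cd4, Gclc was at 54.6 and 62.3 against 57.5 and 59.0 CPM (+0.00), and in cluster 10, led by Ccl5, Cd8b1 and Cd8a, at 55.6 and 64.8 against 68.0 and 66.5 CPM (−0.16). Of the 9 genes tested in each, edgeR called 0 (0 unadjusted), against 0.100% and 0.00951% of all genes. The difference in treatment effect was called between cluster 6 and cluster 24 (−0.95, SE 0.16, adjusted p = 0.0251; 0.267% of all genes) and between cluster 10 and cluster 24 (−1.11, SE 0.15, adjusted p = 8.39e-04; 0.495%), but not between clusters 6 and 10 (+0.17, adjusted p = 0.954; 0.0445%). In each of these 3 comparisons no gene of the 10 other than Gclc was called. They were added after seeing the data and rest on the same libraries as the call in cluster 24, so they are no independent support for it. Over all T cells Gclc was at 112 and 109 against 87.0 and 70.4 CPM (+0.49, SE 0.11, adjusted p = 0.131). There edgeR called 0 of 9 genes and DESeq2 1, Gpx3, against 0.0540% of all genes for edgeR. For 2 of the 9 the unadjusted p was below 0.05, as it was for 15.4% of all genes. Without DMSO library 1 the Gclc value for all T cells was +0.65, and without DMSO library 2 it was +0.35. The other genes besides Gpx3 lay between −0.21 (Gpx4) and +0.22 (Ggt1) in all T cells.

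**Figure D5:**
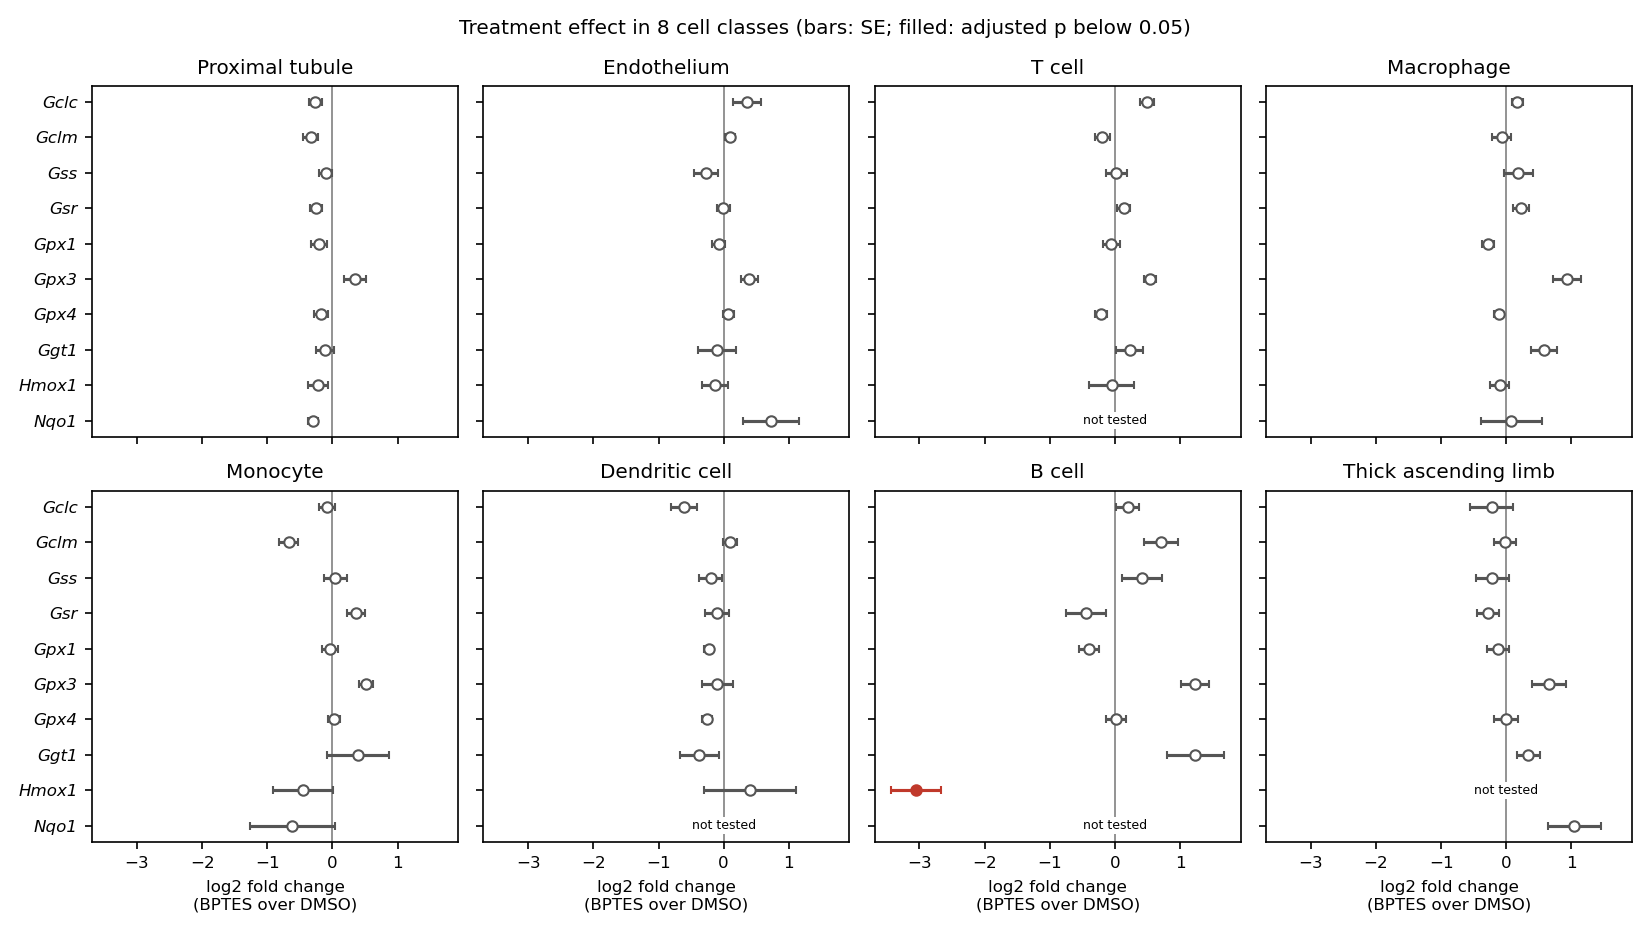
Log2 fold change, BPTES over DMSO, of each gene in the 8 tested classes, with error bars of 1 SE from the edgeR fit on 2 libraries per group and the called value filled. Hmox1 in B cells (−3.05) is the only pair past the threshold, and Gpx3 is positive in 7 of 8 classes.

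In monocytes 0 of 10 genes were called by edgeR, against 4.08% of all genes, and 1, Gpx3, by DESeq2, which called 716 genes in all. By edgeR 3 of the 10 had an unadjusted p below 0.05, beside 24.6% of all genes. Gclm came closest besides Gpx3, at 25.8 and 30.6 CPM under BPTES and 49.3 and 39.8 CPM under DMSO. The groups did not overlap (−0.67, SE 0.15, adjusted p = 0.0568), and the value ranged from −0.81 to −0.48 over the 4 omissions. Gsr was at 582 and 701 against 463 and 536 CPM (+0.36, adjusted p = 0.162). Hmox1, where this class led, was at 105 and 149 against 237 and 109.6 CPM, with DMSO library 1 apart from the other 3 (−0.46, adjusted p = 0.612). Over the 4 omissions Hmox1 ranged from −0.90 to +0.23. The genes of the 10 not named here lay between −0.62 (Nqo1) and +0.39 (Ggt1). The class differed in make-up: cluster 23, led by Adgre4, Cd300e, Ear2, Ace and Treml4, held 53.6% and 48.5% of BPTES and 36.1% and 41.9% of DMSO monocytes, and cluster 20, led by Fn1, Chil3, F13a1, Plac8 and Lyz2, held the others. Cluster 20 carried macrophage markers at a median of 45.03% of the macrophage level. Summed macrophage markers were at 2390 and 1555 against 6307 and 5769 CPM, lower for 7 of 7. Fitted alone, cluster 20 had Gclm at 27.5 and 29.0 against 45.8 and 44.0 CPM (−0.67, adjusted p = 0.0873), with macrophage markers at 3420 and 2144 against 7698 and 7365 CPM. In cluster 23, where no macrophage marker was lower in both BPTES libraries (571 and 429 against 632 and 443 CPM), Gclc was at 43.6 and 52.0 against 71.2 and 79.4 CPM (−0.65, adjusted p = 0.0997), Gss at 34.2 and 29.7 against 53.1 and 46.2 CPM (−0.65, adjusted p = 0.139), and Gclm at −0.79 (adjusted p = 0.532). No gene of the 10 was called in either cluster, against 0.600% and 0.736% of all genes. The unadjusted p was below 0.05 for 2 of 9 and 4 of 10, beside 2075 of 11498 and 1392 of 9650 of all genes.

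Of the wider pathway, 5 of 80 tested genes of the 9 antioxidant lists were called in monocytes, 4 lower and 1 higher (6.25%, beside 4.08% of all genes). Slc7a11, the cystine importer that supplies cysteine for glutathione, fell from 122 and 134 CPM under DMSO to 50.5 and 53.9 CPM under BPTES (−1.29, SE 0.11, adjusted p = 0.0153). Its partner chain Slc3a2 fell from 169 and 155 to 94.7 and 95.3 CPM (−0.77, adjusted p = 0.0196), and the ferritin heavy chain Fth1 from 6418 and 7135 to 3535 and 3728 CPM (−0.90, adjusted p = 0.0239). The aminopeptidase Anpep fell from 16.2 and 17.8 to 7.80 and 7.47 CPM (−1.14, adjusted p = 0.0278), and Txnip, an inhibitor of thioredoxin, rose from 157 and 158 to 222 and 213 CPM (+0.46, adjusted p = 0.0470). Slc7a11 was called in both clusters alone, from 86.4 and 114 to 31.7 and 40.9 CPM in cluster 20 (−1.46, adjusted p = 0.0444) and from 275 and 203 to 83.3 and 77.6 CPM in cluster 23 (−1.58, adjusted p = 0.00211). The others were not called there, with values in clusters 20 and 23 of −0.68 and −0.80 for Slc3a2, −0.91 and −0.89 for Fth1 and +0.55 and +0.62 for Txnip, and −0.85 for Anpep in cluster 20, while Anpep was not tested in cluster 23. Without BPTES library 2 none of the 5 was called (Slc7a11 −1.34, adjusted p = 0.0632), without BPTES library 1 Slc7a11 alone was, and Txnip was called in none of the 4 fits that left out a library. Over the 4 omissions the values ranged from −1.35 to −1.23 for Slc7a11, −0.83 to −0.69 for Slc3a2, −0.96 to −0.83 for Fth1, −1.20 to −1.08 for Anpep and +0.46 to +0.49 for Txnip. With doublets kept, Anpep (−0.66, adjusted p = 0.175), Slc3a2 (−0.68, adjusted p = 0.0589) and Txnip (+0.46, adjusted p = 0.0654) were not called, nor was Anpep at clustering resolution 2 (adjusted p = 0.0641). Neutrophil markers were also lower in the monocyte sums, at 189 and 139 against 334 and 345 CPM (4 of 7 lower in both BPTES libraries). In cluster 20 they were at 205 and 145 against 385 and 354 CPM (4 of 7) and in cluster 23 at 161 and 127 against 126.5 and 314 CPM (0 of 7), and Slc7a11 was called in both. The part of neutrophil and macrophage RNA in the monocyte values was not tested.

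In macrophages 0 of 10 genes were called by edgeR, against 2.13% of all genes, and 1, Gpx3, by DESeq2, which called 647 genes in all. By edgeR 3 of the 10 had an unadjusted p below 0.05, beside 23.9% of all genes. Gpx1 was at 709.9 and 735 against 936 and 814 CPM (−0.28, adjusted p = 0.141). It stood at −0.37 without DMSO library 2 and at −0.17 without DMSO library 1. Gsr was at 36.2 and 35.3 against 34.2 and 26.8 CPM (+0.23, adjusted p = 0.314). It stood at +0.42 without DMSO library 1 and at +0.07 without DMSO library 2. Ggt1, at 6.05 and 6.37 against 4.63 and 3.68 CPM, had no overlap and an unadjusted p of 0.0237 (+0.58, adjusted p = 0.146). In the proximal tubule it was at 288 and 288 against 266 and 356 CPM. Summed proximal tubule markers in macrophages were higher too, at 242 and 303 against 178 and 139 CPM (6 of 7), and their part in the Ggt1 value was not tested. The other genes besides Gpx3 lay between −0.12 (Gpx4) and +0.19 (Gss). Of 83 tested list genes 7 were called, all of them lower (8.43%, beside 2.13% of all genes). Of these, 4 were among the 16 of the thioredoxin and peroxiredoxin system. Of the 298 genes of any kind called in this class, 225 were lower and 73 higher. Prdx1, a peroxiredoxin that reduces hydrogen peroxide, fell from 404 and 395 to 266 and 291 CPM (−0.52, adjusted p = 0.0370), Prdx5 from 241 and 249.9 to 176 and 167 CPM (−0.52, adjusted p = 0.0327) and Prdx4 from 54.5 and 52.5 to 39.9 and 37.9 CPM (−0.46, adjusted p = 0.0439). Blvra, the biliverdin reductase that acts after Hmox1, fell from 51.1 and 56.0 to 35.6 and 34.5 CPM (−0.61, adjusted p = 0.0310). Pgd, an NADPH source, fell from 79.7 and 77.7 to 57.3 and 57.2 CPM (−0.46, adjusted p = 0.0357), and the lipoxygenase Alox5 from 14.7 and 15.5 to 8.06 and 8.77 CPM (−0.84, adjusted p = 0.0342). The 6 named calls were all lost without BPTES library 1 (adjusted p 0.156 to 0.211) and without BPTES library 2 (0.244 to 0.279), where the number of genes called in the class also dropped. Over the 4 omissions the values ranged from −0.90 to −0.78 for Alox5, −0.67 to −0.54 for Blvra, −0.58 to −0.45 for Prdx1, −0.56 to −0.48 for Prdx5, −0.49 to −0.42 for Prdx4 and −0.47 to −0.44 for Pgd. In cluster 4 alone Prdx5 (−0.72), Prdx1 (−0.56), Blvra (−0.71) and Pgd (−0.55) were called, and in cluster 19 alone only Alox5 (−1.04, adjusted p = 0.0467), with Prdx5 at −0.23 and Pgd at −0.25. With doublets kept, Alox5 was at −0.39 (adjusted p = 0.110), and at resolution 2 Prdx5 at −0.46 (adjusted p = 0.0555). Beside these values, cycling markers were lower in both BPTES libraries for 6 of 6 genes (26.1 and 28.6 against 45.9 and 56.1 CPM), natural killer markers higher for 5 of 7 (69.5 and 62.9 against 35.2 and 44.9 CPM) and injured tubule markers lower for 4 of 7 (64.7 and 57.3 against 108 and 191 CPM). Their part was not tested.

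In dendritic cells 0 of 9 genes were called by edgeR, against 2.12% of all genes, and 0 by DESeq2. By edgeR 3 of the 9 had an unadjusted p below 0.05, beside 22.7% of all genes. Gclc was at 28.2 and 27.5 CPM under BPTES and 50.9 and 34.2 CPM under DMSO, with DMSO library 1 apart (−0.61, SE 0.20, adjusted p = 0.156). It stood at −0.87 without DMSO library 2 and at −0.30 without DMSO library 1. The clusters differed in order: in cluster 15 Gclc was at 28.3 and 27.6 against 57.8 and 42.4 CPM (−0.85, adjusted p = 0.0767) and in cluster 28 at 28.7 and 27.2 against 22.2 and 16.7 CPM (+0.55, adjusted p = 0.278). Of 9 genes, 0 were called in each, against 0.804% and 0.00% of all genes, and the difference between these clusters was not tested. The unadjusted p was below 0.05 for 1 and 2 of the 9, beside 2151 of 12061 and 1411 of 10895 of all genes. Gpx1 (1123 and 1156 against 1369.6 and 1306 CPM, −0.23, adjusted p = 0.104) and Gpx4 (149 and 159 against 191 and 177 CPM, −0.26, adjusted p = 0.111) were lower in both BPTES libraries. The other genes besides Gpx3 lay between −0.37 (Ggt1) and +0.41 (Hmox1). Over the 4 omissions Ggt1 ranged from −0.62 to −0.07 and Hmox1 from −0.76 to +1.06. Of 80 list genes 3 were called: the small Maf factor Maff fell from 26.0 and 24.5 to 14.9 and 13.8 CPM (−0.81, adjusted p = 0.0229), Prdx5 fell from 211 and 239 to 147 and 167 CPM (−0.52, adjusted p = 0.0412), and Txnip rose from 114 and 135 to 194 and 194 CPM (+0.64, adjusted p = 0.0236). All 3 calls were lost without BPTES library 1 (adjusted p 0.132 to 0.217) and without BPTES library 2 (0.189 to 0.207), while over the 4 omissions the values ranged from −0.87 to −0.76 for Maff, −0.61 to −0.43 for Prdx5 and +0.53 to +0.77 for Txnip. None was called in cluster 15 alone (adjusted p 0.0883 to 0.115) or in cluster 28 alone (0.0688 to 0.575). In clusters 15 and 28 Txnip stood at +0.59 and +0.66, Maff at −0.56 and −0.55 and Prdx5 at −0.47 and −0.29. In the whole class Prdx5 was not called at resolution 2 (−0.38, adjusted p = 0.0763). Cluster 15 held 62.8% and 60.0% of BPTES and 82.1% and 69.9% of DMSO dendritic cells, and Maff stood there at 21.9 and 19.4 against 30.9 and 30.2 CPM, beside 6.06 and 6.92 against 5.77 and 12.6 CPM in cluster 28. Markers of other cells were lower in the dendritic cell sums too: intercalated cell markers for 6 of 7 genes (2.26 and 3.19 against 8.76 and 3.68 CPM), endothelial markers for 5 of 8 (39.8 and 32.3 against 51.0 and 34.9 CPM), innate lymphoid markers for 3 of 7 (28.8 and 27.5 against 46.9 and 43.9 CPM, 1 at 0) and injured tubule markers for 2 of 7 (11.2 and 10.7 against 20.7 and 35.4 CPM, 1 at 0). Their part, and that of the cluster shares, was not tested.

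In endothelium 0 of 10 genes were called by edgeR, against 0.635% of all genes, and 0 by DESeq2. By edgeR 1 of the 10 had an unadjusted p below 0.05, beside 11.3% of all genes. Nqo1 was at 9.48 and 21.2 against 9.43 and 8.49 CPM and Gclc at 65.5 and 98.7 against 60.7 and 65.1 CPM. Both were highest in BPTES library 2, and without BPTES library 1 Nqo1 stood at +1.25 and Gclc at +0.65. Without BPTES library 2 they were at +0.09 and +0.06. The other genes besides Gpx3 lay between −0.27 (Gss) and +0.10 (Gclm). In endothelial clusters 5, 14 and 22 alone, 0 of 10 genes were called in each, against 0.556%, 0.0187% and 0.561% of all genes. The unadjusted p was below 0.05 for 3, 2 and 0 of the 10, beside 1347 of 12059, 630 of 10712 and 958 of 11238 of all genes. Of 84 list genes 1 was called, Alox12, a lipoxygenase of arachidonic acid, which rose from 60.3 and 53.3 to 83.7 and 95.2 CPM (+0.65, adjusted p = 0.0165). When single clusters were fitted, it rose in cluster 22 from 147 and 139 to 218 and 261 CPM (+0.74, adjusted p = 0.00832). Cluster 5 (+0.22) and cluster 14 (−0.77) gave no call, and the difference between the clusters was not tested. The class value was not called without BPTES library 2 (+0.56, adjusted p = 0.105), at resolution 2 (adjusted p = 0.0523) or with doublets kept (adjusted p = 0.0911). Macrophage markers (53.4 and 48.6 against 70.6 and 85.3 CPM, 5 of 7 lower), monocyte markers (215 and 180 against 278 and 318 CPM, 3 of 7 lower) and injured tubule markers (194 and 165 against 292 and 331 CPM, 3 of 7 lower and 1 at 0) were lower in the same sums. Cluster 22, where Alox12 was highest, made up 22.2% and 19.7% of endothelial cells under BPTES and 16.1% and 14.2% under DMSO. The part of these markers and shares in the class value was not tested.

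In the thick ascending limb 0 of 9 genes were called by edgeR, against 0.224% of all genes, and 0 by DESeq2. By edgeR 2 of the 9 had an unadjusted p below 0.05, beside 7.43% of all genes. Nqo1 was at 15.1 and 22.3 against 13.3 and 5.78 CPM (+1.05, SE 0.41, adjusted p = 0.543) and Gpx3 at 1806 and 1237 against 1196 and 735 CPM (+0.66, SE 0.26, adjusted p = 0.578). DMSO library 2 was the lowest for both. That library had a median of 8431 UMIs per cell in this class against 3226.5 to 3836 in the other 3, and cluster 33 made up 37.9% of it against 20.3 to 24.7%. Mitochondrial UMIs were 22.1% and 21.2% under BPTES and 18.4% and 14.7% under DMSO, and injured tubule markers were lower under BPTES for 5 of 7 genes (309.5 and 317 against 433 and 655 CPM, 1 at 0). Their part was not tested. Without DMSO library 1, Nqo1 stood at +1.65, Gpx3 at +1.05 and Gclc at −0.57. Over the 4 omissions Nqo1 ranged from +0.46 to +1.65, Gpx3 from +0.36 to +1.05 and Gclc from −0.57 to +0.28. The other genes tested lay between −0.27 (Gsr) and +0.34 (Ggt1).

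No list gene was called in the proximal tubule (89 tested), T cells (79), B cells (72) or the thick ascending limb (77). In the proximal tubule, beside a median log2 fold change of −0.01 over all genes, positive values were found for 0 of 16 genes of the thioredoxin and peroxiredoxin system (median −0.19), 1 of 16 glutathione transferases (−0.23), 1 of 7 genes of lipid peroxidation and ferroptosis (−0.21) and 1 of 9 of heme breakdown and iron handling (−0.14). They were found for 2 of 8 regulators of the NRF2 pathway (−0.11), 1 of 3 other glutathione peroxidases (−0.10), 1 of 4 superoxide dismutases and catalase (−0.09), 1 of 9 genes of NADPH supply (−0.07) and 8 of 17 of glutathione precursor supply and breakdown (−0.01). The S3 share of this class was lower under BPTES, at 20.5% and 14.9% against 26.2% and 29.3%, and its part in these values was not tested. Genes of a list are read in the same 4 libraries, so a shared direction adds no replicate.

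The difference in treatment effect between classes was tested as an interaction with library as a block. Between proximal tubule and macrophages 0 of 10 genes were called, against 1.43% of all genes, and 4 had an unadjusted p below 0.05, beside 2574 of 17457. Gclc came closest (−0.40, SE 0.13, adjusted p = 0.146). Between proximal tubule and endothelium 0 of 10 were called, against 0.142%, and 3 had an unadjusted p below 0.05, beside 1955 of 17556. Without DMSO library 1, Gss was at −0.68, Gsr at −0.71 and Ggt1 at −1.05 against macrophages, and Nqo1 at −0.999 against endothelium. Without BPTES library 1, Gclc was at −0.95 and Nqo1 at −1.46 against endothelium. Over the 4 omissions these values ranged from −0.68 to +0.10 for Gss, from −0.71 to −0.23 for Gsr and from −1.05 to −0.27 for Ggt1 against macrophages, and from −0.95 to −0.22 for Gclc and from −1.46 to −0.40 for Nqo1 against endothelium. Over all 28 pairs of tested classes, added after the first results, 8 of 276 gene and pair tests were called, against 0.583% of all genes over these pairs together. Of these 8, 4 were Hmox1 in B cells against proximal tubule (0.854% of all genes in that pair), endothelium (0.879%), macrophages (0.214%) and monocytes (0.852%), which share the B cell libraries and cluster 47. The others were Gclm between proximal tubule and B cells, Nqo1 between proximal tubule and the thick ascending limb (0.917%), Gclc between T cells and dendritic cells (0.186%) and Gpx3 between macrophages and dendritic cells (0.468%).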

How the data were processed

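Raw UMI counts per gene and barcode were deposited by the authors, made with Cell Ranger 8.0.1 on mm10 per the submitters' processing notes, and the annotation is not given in the sources used here. Barcodes were kept at 500 or more UMIs, 300 or more genes and at most 50% mitochondrial UMIs (25273 barcodes exceeded this), and 3867 predicted doublets were removed with Scrublet scores at a rate of 0.4% per 1000 barcodes, of which Scrublet's own threshold marked 700. Cells were clustered with scanpy 1.11.5 and leidenalg 0.10.2 (3000 variable genes, 40 components, 15 neighbours, resolution 1), leaving out 107 antioxidant and 13 mitochondrial genes. Clusters were named from 27 marker lists (170 genes), and 4 clusters (2439 cells, 5.22%) stayed unnamed. Within each class, UMIs of a library were added up and tested across all genes with edgeR 4.0.16 (quasi-likelihood, robust, TMM, filterByExpr, limma 3.58.1, R 4.3.3), with Benjamini-Hochberg adjustment over all genes of the class at 0.05. SEs were derived from the F statistic. Nqo1 in T cells, dendritic cells and B cells and Hmox1 in the thick ascending limb were below the count filter. The scripts were tested on simulated data. Alternatives were DESeq2 1.42.0, a replicate block, all genes regardless of count, RLE scaling, clustering at resolution 2, keeping doublets, a mitochondrial limit of 25%, and omission of each library in turn. Added after seeing the data were fits without mitochondrial genes, and without clusters holding another class's markers at 25% or more of that class's level. Fits within segments and clusters, the further class pairs and the pairs of T cell clusters were also added then. All 10 genes are described in every tested class, by a value or within a range of values. Of the 9 further lists (96 genes, 1 of them not matched), up to 6 called genes per class with groups that do not overlap are named. The genes and lists were chosen with earlier results of these data known. The feature list also holds a tdTomato sequence, with 0 UMIs. Protein sequences were not analysed here, and 1 gene among those most like the 10 in level is not reported here.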

Additional observations from a re-analysis of the deposited data

Results flagged for a closer look

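The difference in treatment effect between cell classes was called for 8 of the 276 tests of these genes (edgeR's interaction test, p adjusted over all genes within a pair, not over the 28 pairs). Each value is the log2 effect in the class named earlier minus that in the class named later. For Hmox1 it was 2.76 between proximal tubule and B cells (adjusted p = 0.0411), 2.85 between endothelium and B cells (0.0186), 2.90 between macrophages and B cells (0.0368) and 2.65 between monocytes and B cells (0.0181). All 4 share the B cell sums, in which cluster 47 holds 120 of 125 and 95 of 101 Hmox1 UMIs of the DMSO libraries. For Gclm it was −1.06 between proximal tubule and B cells (adjusted p = 0.0401), and for Nqo1 −1.38 between proximal tubule and thick ascending limb (adjusted p = 0.00904), where Nqo1 stood at 5.78 CPM in DMSO library 2 and 13.3 to 22.3 CPM in the other 3. For Gclc it was 1.10 between T cells and dendritic cells (adjusted p = 0.0475), and for Gpx3 1.00 between macrophages and dendritic cells (adjusted p = 0.0480), beside summed proximal tubule markers of 242 and 303 CPM under BPTES against 178 and 139 CPM under DMSO in macrophages, and of 145 and 143 against 149 and 146 CPM in dendritic cells.

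T cell clusters were compared by edgeR's interaction test after seeing the data. The effect on Gclc differed by −0.95 between cluster 6 and cluster 24 (adjusted p = 0.0251) and by −1.11 between cluster 10 and cluster 24 (adjusted p = 8.39e-04). Cells of the unnamed clusters, which enter no comparison, held Gpx3 at a mean of 1018 CPM in the BPTES libraries (945 and 1092 CPM), against 569.7 and 658 CPM in the DMSO libraries.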

How the results depend on the processing

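Of 1371 values of single genes under alternatives, 1125 kept their direction and side of the threshold, 117 uncalled values changed sign, 54 gained a call, 74 lost a call and 1 reversed (Alox12 in endothelial cluster 14, −0.77, not called there). RLE scaling changed no call of the genes examined. The number of all genes called moved by over 1.5 times in these cases. DESeq2 called 833 in proximal tubule, 140 in endothelium, 117 in T cells, 647 in macrophages, 498 in dendritic cells and 409 in B cells. With no low-count filter the counts were 1907 in proximal tubule, 656 in endothelium, 474 in T cells, 1422 in macrophages, 1928 in monocytes, 1041 in dendritic cells, 1143 in B cells and 192 in the thick ascending limb. With doublets kept they were 29 in proximal tubule, 18 in endothelium, 1042 in macrophages, 113 in monocytes, 613 in dendritic cells, 16 in B cells and 14 in the thick ascending limb. A 25% mitochondrial limit gave 26 in proximal tubule, resolution 2 gave 14 in T cells, and leaving out clusters with markers of another class gave 71 in monocytes and 2 in B cells. Of the 10 genes, DESeq2 called 1 each in T cells, macrophages and monocytes and 2 in B cells. No filter gave 1 in proximal tubule, 3 in endothelium, 2 in T cells, 3 in monocytes, 2 in dendritic cells and 2 in B cells. Resolution 2 gave 1 in macrophages and 2 in monocytes, doublets kept 1 in monocytes, 1 in dendritic cells and 0 in B cells, clusters with other markers left out 0 in B cells, and the fit without mitochondrial genes 1 in monocytes. Leaving out each library in turn gave 0 to 1 of the 10 genes in proximal tubule (4 to 1158 genes in all), 0 to 2 in endothelium (56 to 303), 0 to 1 in T cells (4 to 240), 0 to 1 in macrophages (3 to 1409), 0 to 1 in monocytes (11 to 681), 0 to 1 in dendritic cells (6 to 696), 0 to 2 in B cells (0 to 1102) and 0 to 3 in the thick ascending limb (27 to 677), where the lone library of a group is assumed to vary like the other group. For the interactions, values over the omissions are given above. Levels that moved by over 1 SD were Gss (176 CPM) and Gpx3 (16212 CPM) in proximal tubule and Nqo1 in connecting tubule (88.4 CPM) at the 25% limit, and Gsr in neutrophils (987 CPM) and Gpx4 in injured tubule (974 CPM) with doublets kept. In lowly counted classes the depth limits Nqo1, at 0.202 to 1.12 CPM in the macrophage, T cell, B cell and dendritic cell sums.

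The labels number the libraries but give no pairing. With the replicate block the counts were 2187 in proximal tubule, 160 in endothelium, 505 in T cells, 49 in macrophages, 1183 in dendritic cells, 635 in B cells and 357 in the thick ascending limb, of which 4 of the 10 genes in proximal tubule (Gclm, Gsr, Gpx3 and Nqo1), 2 in T cells, 1 in monocytes, 1 in dendritic cells, 2 in B cells and 1 in the thick ascending limb. The 6 named macrophage calls were lost with it (adjusted p 0.0572 to 0.0726, values −0.84 to −0.46). Deviations of same-numbered libraries from their group means correlated at −0.096 to 0.286 over the classes, and with 2 pairs this does not show a pairing.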
